A study of Mus musculus with 39 samples.

Results

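This account covers 1 comparison of a mouse RNA sequencing study: whether the difference in gene expression between the nucleus accumbens (NAc) and the basolateral amygdala (BLA) of the same brain differs between Lmo4gt/+ and wild-type (WT) mice. The mice that gave a library of both regions under 1 title number were taken, 19 of 20 mice and 38 of 39 libraries. They were 9 Lmo4gt/+ mice, which carry a gene-trap allele of Lmo4 beside an untrapped one, and 10 WT mice; the remaining WT mouse had a BLA library only. All were C57BL/6J mice aged 8 to 12 weeks, with no other allele or treatment named in the labels, which give no sex, litter or batch. Both regions were punched from frozen sections 300 µm thick, and polyA RNA was sequenced. The series' title and design text set the mice in a search for genes that LMO4 may control in the context of alcohol consumption and reward. For every gene, the level as CPM (counts scaled to a common library total) was taken on a log2 scale and the BLA value was subtracted from the NAc value of the same mouse. This per-mouse value is called the region difference. The region difference of the Lmo4gt/+ mice less that of the WT mice is called the difference of differences. Its printed values are those of the edgeR fit to the counts, unless another fit is named. A positive difference of differences therefore means that a gene leaned further towards the NAc, or less far towards the BLA, in Lmo4gt/+ mice.

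LMO4 belongs to the LIM-only proteins, which join DNA-binding factors to partners such as LDB1 without binding DNA themselves. The BLA is a cortex-like part of the amygdala in which glutamatergic projection neurons prevail and which takes part in learning the value of cues. The NAc belongs to the ventral striatum, consists largely of GABAergic medium spiny neurons that receive dopamine, and takes glutamatergic input from the BLA. A difference of differences asks whether the allele goes along with a different change in one of these regions than in the other, and each mouse serves as its own reference in it.

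The libraries held 21255934 to 51021670 counted reads each. The summed level of 25 medium spiny neuron markers ran from 7136 to 14110 CPM in Lmo4gt/+ NAc and from 6868 to 12450 CPM in WT NAc, and did not exceed 2560 CPM in Lmo4gt/+ BLA or 2690 CPM in WT BLA. The summed level of 24 markers of pallial (cortex-like) projection neurons was 4806 to 6000 CPM in Lmo4gt/+ BLA and 4215 to 5930 CPM in WT BLA, so both marker sets went with the labelled regions. NAc libraries 122 (Lmo4gt/+) and 134 (WT) stood apart with 1994 and 2712 CPM of the pallial markers, against medians of 843 CPM in Lmo4gt/+ NAc and 856 CPM in WT NAc. The BLA libraries of Lmo4gt/+ mice 149 and 159 held 2560 and 2501 CPM of the medium spiny neuron markers and those of WT mice 129 and 156 held 2690 and 2626 CPM, against medians of 1433 CPM in Lmo4gt/+ BLA and 1502 CPM in WT BLA. The BLA library of Lmo4gt/+ mouse 127 held 671 CPM of choroid plexus markers, against at most 47.7 CPM in any WT BLA library, and the BLA library of Lmo4gt/+ mouse 138 held 296 CPM of meningeal markers, against at most 97.3 CPM in WT. The NAc library of mouse 122 has conflicting labels, Lmo in the title and WT under genotype. It was grouped by its title, and its effect is read from the values without each mouse in turn. These are tissue punches, so fewer cells of a type and less RNA per cell cannot be told apart in any value below.

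**Figure D1:**
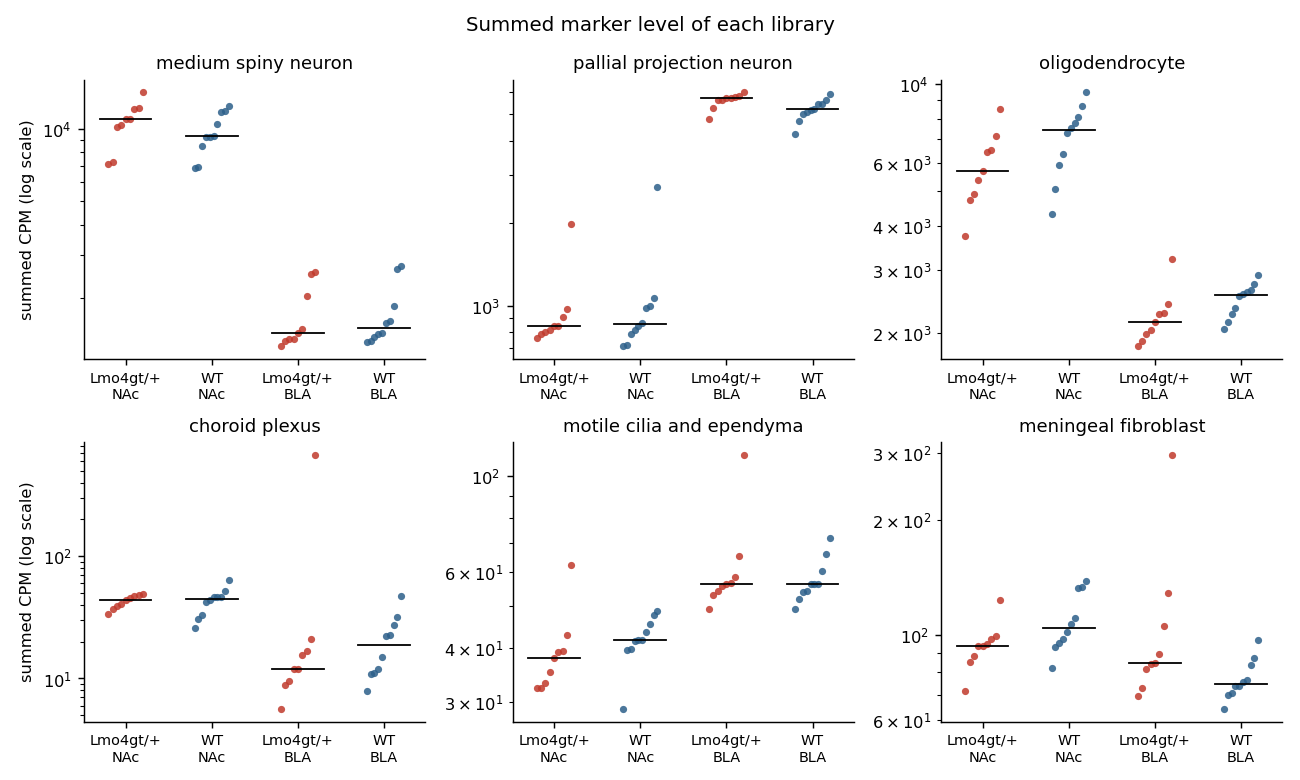
Summed level of 6 marker lists in each of the 38 libraries, in CPM on a log scale, with Lmo4gt/+ libraries in red, WT libraries in blue and a line at each group's median. Medium spiny neuron and pallial markers separate the regions in both genotypes; single libraries stand apart, such as the Lmo4gt/+ BLA library with 671 CPM of choroid plexus markers.

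The trapped gene itself was examined first. Lmo4 (ENSMUSG00000028266.17, chromosome 3, positions 143851494 to 143868184, minus strand, NCBIM37) had 45.9, 52.0 and 69.4 CPM in Lmo4gt/+ NAc (lowest, median and highest) and 67.6, 86.3 and 105.5 CPM in WT NAc. In the BLA it had 68.7, 94.3 and 109 CPM in Lmo4gt/+ mice and 144, 169 and 178 CPM in WT mice. The genotypes did not overlap in the BLA, and in the NAc the library of mouse 122 alone reached into the WT range. The gene was thus lower in the NAc than in the BLA in both genotypes, and lower in Lmo4gt/+ than in WT mice in both regions.

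The region difference of Lmo4 ran from -1.25 through a median of -0.87 to 0.015 log2 units in the 9 Lmo4gt/+ mice and from -1.32 through -0.98 to -0.63 in the 10 WT mice. The ranges overlapped, with 6 of 9 Lmo4gt/+ mice above the WT median. The difference of differences was 0.18 ± 0.13 (log2, SE; 95% interval -0.08 to 0.45; edgeR quasi-likelihood test, adjusted p = 0.9999). An exact two-sided permutation test of the same per-mouse values over all 92378 assignments of the genotypes gave p = 0.213. The highest value was that of mouse 122, whose NAc library carries the conflicting label and is high in pallial markers. The highest WT value, -0.63, was that of mouse 134, whose NAc library is also high in these markers. The difference of differences was 0.09 without mouse 122, 0.22 without mouse 134 and 0.12 without both. The interval includes 0. Where the trap lies within the gene was not examined here, and reads before and after it are counted together.

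**Figure D2:**
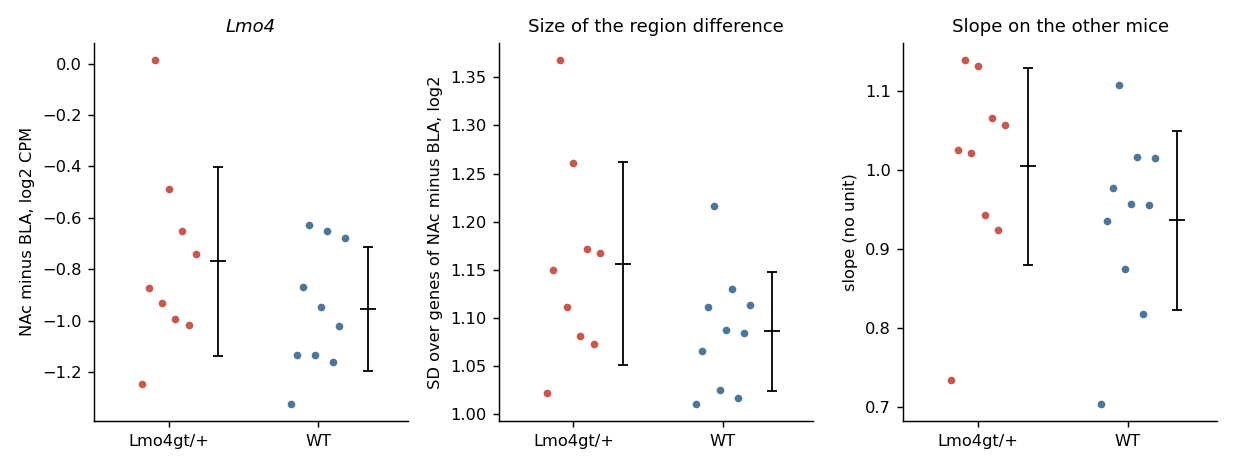
Left, region difference (NAc minus BLA, log2 CPM) of Lmo4 in each mouse; middle, SD over all tested genes of each mouse's region differences; right, slope of each mouse's region differences on the mean of the other mice. Points are mice, Lmo4gt/+ left and WT right, with mean and SD beside them; the genotypes overlap in all panels.

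Across the transcriptome, both genotypes showed a large region difference and no gene passed the test of a difference between them. Of 18325 genes tested, 10016 (54.7%) differed between NAc and BLA in Lmo4gt/+ mice and 9951 (54.3%) in WT mice (edgeR, adjusted p under 0.05). In Lmo4gt/+ mice 4925 of them were higher in the NAc and 5091 higher in the BLA, and in WT mice 4923 and 5028. The lists shared 8612 genes, which is 86.0% of the Lmo4gt/+ list and 86.5% of the WT list, and 8610 of these had the same sign. The 2 genes of opposite sign were mt-Nd6 and a gene with no name in the annotation used (ENSMUSG00000104693.1). Of the shared genes 8425 (97.8%) had a difference of differences within 1 log2 unit.

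For the difference of differences 0 of 18325 genes were called (0%; edgeR, lowest adjusted p = 0.887). At an unadjusted p under 0.05 there were 543 genes (2.96%), 257 with a positive and 286 with a negative value, and at p under 0.01 there were 87. Both counts were below what these thresholds would give if no gene differed. DESeq2, limma voom and limma on the per-mouse differences also called 0 genes, with 835 (of 33875 tested), 614 and 636 genes at an unadjusted p under 0.05. In 0 genes (0%) did the region differences of the 9 Lmo4gt/+ mice lie wholly outside those of the 10 WT mice. The median over all genes was -0.0029, with 9019 genes above and 9306 below 0, and the central 95% of genes lay between -0.85 and 0.86. There were 1404 genes called between regions in Lmo4gt/+ mice alone and 1339 in WT mice alone, but since 0 of them passed the test of the difference, these are not genes shown to differ between the genotypes.

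**Figure D3:**
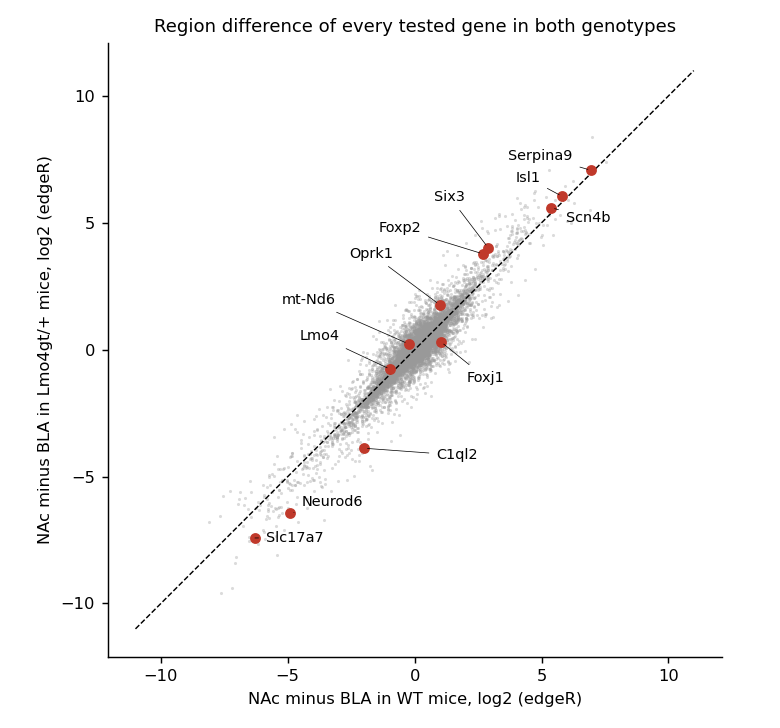
Region difference (NAc minus BLA, log2, edgeR) of each of the 18325 tested genes in Lmo4gt/+ mice (vertical) against WT mice (horizontal), with the dashed line of equality and 12 genes named in the text in red. Genes follow the line over the whole range, and 0 were called off it. Pearson's r across genes was 0.946 for the genotypes' means of the per-mouse region differences, which are not the plotted edgeR values.

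The precision of this comparison depended on the level of the gene. For genes of 10 to 100 CPM the median SE was 0.11, and the 95% interval excluded a 2-fold difference between the genotypes for 98.4% of 7417 genes and a 1.5-fold one for 93.4%. Over 100 CPM these shares were 99.3% and 96.9% of 2425 genes. Among 4937 genes of 1 to 10 CPM they were 74.1% and 34.1%, and among 3546 genes under 1 CPM they were 2.37% and 0.282%, with a median SE of 0.70. Differences of a few-fold in such weakly counted genes were not detectable at this depth and number of mice. Of the 9842 genes with at least 10 CPM on average, 56 had a difference of differences beyond 0.5 log2 units in either direction and 10 beyond 1. The SD between mice of a gene's region difference had a median over genes of 0.37 in Lmo4gt/+ mice and 0.31 in WT mice, a difference that was not tested.

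The genes nearest to the threshold are given for orientation; none of them passed. Among those that leaned more towards the NAc in Lmo4gt/+ mice, mt-Nd6, which encodes a subunit of respiratory complex I on the light strand of the mitochondrial genome (chromosome M, positions 13552 to 14070, minus strand), had region differences of -0.24, 0.27 and 0.53 in Lmo4gt/+ mice (lowest, median, highest) and -0.53, -0.29 and 0.30 in WT mice. All 9 Lmo4gt/+ mice lay above the WT median and 4 above every WT mouse. Its median level was 79.3 CPM in Lmo4gt/+ NAc and 73.9 CPM in WT NAc, and 70.6 CPM in Lmo4gt/+ BLA and 90.7 CPM in WT BLA. The difference of differences was 0.47 ± 0.10 (edgeR, adjusted p = 0.887). Whether the counting used strand is not given in the labels, so reads of the opposite mitochondrial strand cannot be told apart from those of mt-Nd6.

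Oprk1, the kappa opioid receptor (chromosome 1, positions 5578574 to 5596212, plus strand), had region differences of 0.93, 1.81 and 2.80 in Lmo4gt/+ mice and 0.31, 1.03 and 1.94 in WT mice. The ranges overlapped, with 8 of 9 Lmo4gt/+ mice above the WT median and 3 above every WT mouse. Its median level was 70.8 CPM in Lmo4gt/+ NAc and 65.6 CPM in WT NAc, and 20.2 CPM in Lmo4gt/+ BLA and 30.2 CPM in WT BLA, so the medians of the BLA lay further apart on a log scale than those of the NAc. The difference of differences was 0.79 ± 0.22 (95% interval 0.33 to 1.26; edgeR, adjusted p = 0.9999). Oprk1 also stands among the claustrum and endopiriform markers examined here, a cell group beside the BLA; of these 10 markers 6 were above and 4 below 0, with a median of 0.02 (-0.05 without mouse 134), and their summed level in the BLA was 687 to 737 CPM in Lmo4gt/+ mice and 689 to 780 CPM in WT mice. The part of such neighbouring tissue in the Oprk1 value was not tested.

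Cdnf, a neurotrophic factor of the endoplasmic reticulum, had region differences of 0.12, 0.99 and 1.67 in Lmo4gt/+ mice and -0.99, -0.41 and 0.99 in WT mice, at 1.49 CPM on average. All 9 Lmo4gt/+ mice lay above the WT median and 4 above every WT mouse, and the difference of differences was 1.29 ± 0.33. Sorcs3, a sorting receptor of the VPS10 family found at synapses, stood at 0.13, 0.47 and 0.70 in Lmo4gt/+ mice and 0.0055, 0.22 and 0.43 in WT mice. It was counted at 73.7 CPM on average, its difference of differences was 0.25 ± 0.08, and 6 of 9 Lmo4gt/+ mice exceeded every WT mouse. Evpl, which encodes the cell-junction protein envoplakin, had a difference of differences of 0.62 ± 0.18 at 11.4 CPM, with 3 of 9 Lmo4gt/+ mice above every WT mouse. The other named genes of this direction were Rec8, Adat3, Tekt5, Itga11, Pnp2, Alox5 and the microRNA gene mmu-mir-689-2, with values between 0.32 and 2.56; Alox5 and Pnp2 were counted at 0.30 and 1.25 CPM on average. The smallest p of all belonged to 9030425E11Rik, a clone name that the naming rule skips and that is given here after its value was seen: its difference of differences was 0.48 ± 0.10 at 36.3 CPM (edgeR, adjusted p = 0.887), from a region difference of 0.50 in Lmo4gt/+ mice and 0.02 in WT mice.

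In the other direction, Smoc1, a secreted calcium-binding matrix protein (chromosome 12, positions 82127795 to 82287401, plus strand), was lower in the NAc than in the BLA in every mouse. Its region differences were -2.59, -2.17 and -1.66 in Lmo4gt/+ mice and -2.10, -1.37 and -0.61 in WT mice. The ranges overlapped, with 6 of 9 Lmo4gt/+ mice below every WT mouse. Its median level was 6.23 CPM in Lmo4gt/+ NAc and 8.61 CPM in WT NAc, and 26.4 CPM in Lmo4gt/+ BLA and 22.2 CPM in WT BLA, so the genotypes' medians lay apart in opposite directions in the 2 regions. The difference of differences was -0.74 ± 0.17 (95% interval -1.08 to -0.40; edgeR, adjusted p = 0.887).

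Foxj1, the transcription factor that drives the programme of motile cilia, had region differences of -0.0035, 0.27 and 0.71 in Lmo4gt/+ mice and 0.61, 1.07 and 1.35 in WT mice, at 3.42 CPM on average. The ranges touched only in their ends, with 7 of 9 Lmo4gt/+ mice below every WT mouse, and the difference of differences was -0.72 ± 0.17. Nfe2l2, which encodes the oxidative-stress factor NRF2, stood at -0.19, 0.19 and 0.72 in Lmo4gt/+ mice and 0.40, 0.70 and 0.96 in WT mice. Its difference of differences was -0.48 ± 0.12, and its median level was 9.91 CPM in Lmo4gt/+ NAc, 11.7 CPM in WT NAc, 8.93 CPM in Lmo4gt/+ BLA and 6.99 CPM in WT BLA. C1ql2, a secreted protein of the C1q family that takes part in synapse organisation, had region differences of -5.79, -4.59 and -1.82 in Lmo4gt/+ mice and -3.25, -2.12 and -0.57 in WT mice. Its median level was 0.522 CPM in Lmo4gt/+ NAc and 0.997 CPM in WT NAc, and 8.06 CPM in Lmo4gt/+ BLA and 4.49 CPM in WT BLA; the difference of differences was -1.88 ± 0.50. Slc6a20a, a transporter of proline-like amino acids, stood at -1.15, -0.30 and -0.014 in Lmo4gt/+ mice and -0.21, 0.16 and 0.67 in WT mice, a difference of differences of -0.73 ± 0.18. The adjusted p of these 4 genes was 0.9999 in edgeR. The other named genes of this direction were Efemp1, Tlr3, Ak8, Ano4, Col1a1, Ocln and Ect2, with values between -1.88 and -0.35.

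**Figure D4:**
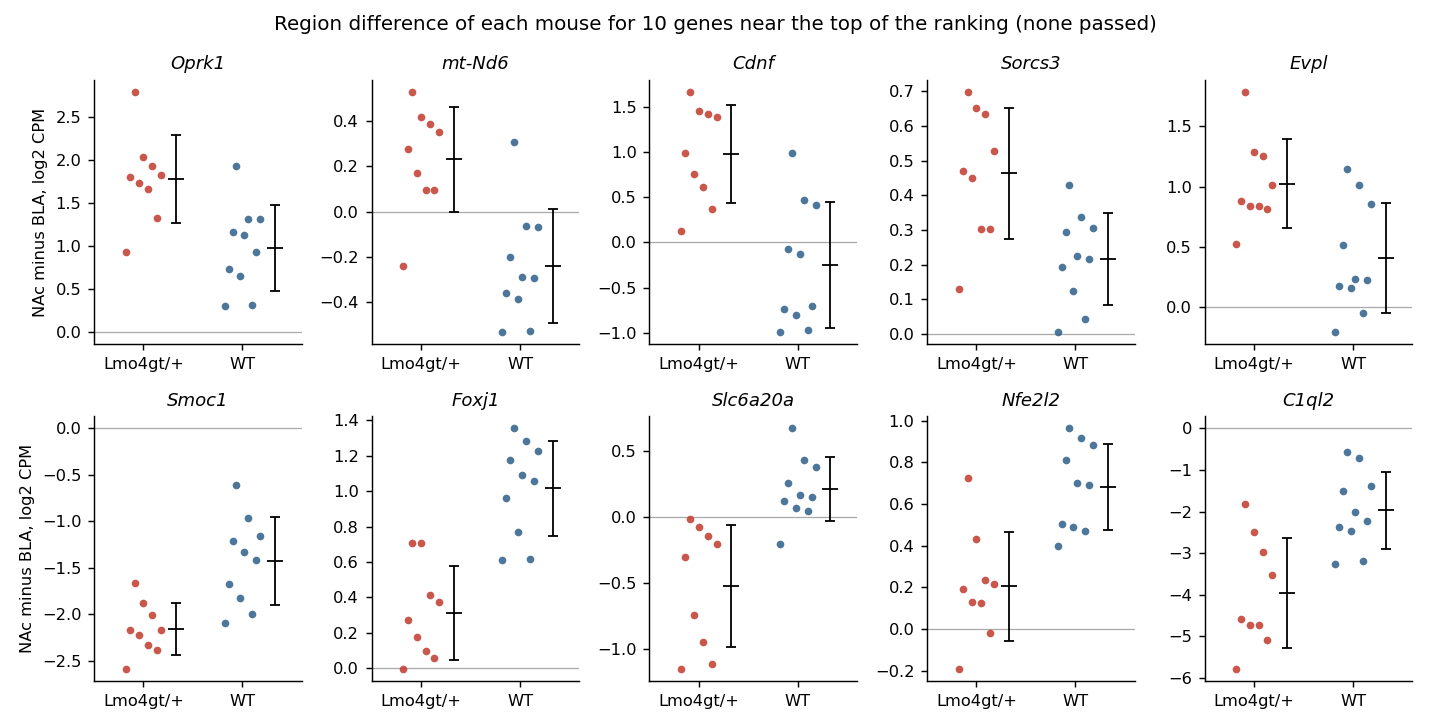
Region difference (NAc minus BLA, log2 CPM) of each mouse for 10 of the genes with the smallest p, Lmo4gt/+ left and WT right; black bars are mean and SD over 9 and 10 mice. The genotypes overlap in every panel and none of the genes passed the test.

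The genes that differ most between the regions served as a check of how far the contrast itself held in both genotypes. Scn4b, a sodium channel subunit of medium spiny neurons, had 420 to 1184 CPM in Lmo4gt/+ NAc and 408 to 973 CPM in WT NAc, and 5.39 to 76.6 CPM in Lmo4gt/+ BLA and 6.58 to 84.0 CPM in WT BLA. Its mean region difference was 5.62 ± 1.36 in Lmo4gt/+ mice and 5.36 ± 1.45 in WT mice (SD, n = 9 and 10), and the difference of differences was 0.22 ± 0.69 (SE), from -0.06 without WT mouse 156 to 0.48 without Lmo4gt/+ mouse 159, both with a BLA library high in medium spiny neuron markers. Isl1, a LIM homeodomain factor of striatal neurons, differed by 6.48 ± 1.98 in Lmo4gt/+ mice and 6.18 ± 1.60 in WT mice; its difference of differences was -0.32 without mouse 156 and 0.86 without mouse 149. The other genes named for a high NAc level were Serpina9, Calcr, Chat, Cd4, Gpr6 and Sh3rf2. The difference of differences of all 8 lay between 0.07 and 0.84 with standard errors of 0.60 to 1.02.

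Of genes higher in the BLA, Slc17a7, the vesicular glutamate transporter of cortical projection neurons, had 1701 to 2008 CPM in Lmo4gt/+ BLA and 1541 to 1986 CPM in WT BLA. In the NAc it had 2.26, 7.60 and 528 CPM in Lmo4gt/+ mice (lowest, median, highest) and 1.26, 12.5 and 911 CPM in WT mice, and the highest libraries were again those of mice 122 and 134. Its region differences were -9.75, -7.83 and -1.69 in Lmo4gt/+ mice and -10.3, -7.04 and -1.12 in WT mice, and the difference of differences was -1.13 ± 1.39. Slc30a3, Pappa2, Neurod2, Rspo2, Neurod6, Rtn4rl2 and Prdm8 were named by the same rule, and the values of all 8 lay between -1.55 and -0.73 with standard errors of 0.98 to 1.54. Mice 122 and 134 moved these values in opposite directions: Neurod6, a transcription factor of projection neurons, stood at -1.55 with all mice, -2.92 without mouse 122 and -0.95 without mouse 134.

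Among genes with at least 10 CPM on average, the largest positive values belonged to Six3 (1.12 ± 0.53), Foxp2 (1.08 ± 0.46) and Cartpt (0.88 ± 0.48), and Neurod6 and Rspo2 were among those with the largest negative ones. Six3, a homeobox gene of striatal neurons, had region differences of 2.19, 4.55 and 6.75 in Lmo4gt/+ mice and 1.51, 3.10 and 3.95 in WT mice, with 6 of 9 Lmo4gt/+ mice above every WT mouse. Its median level was 77.6 CPM in Lmo4gt/+ NAc and 76.2 CPM in WT NAc, and 3.06 CPM in Lmo4gt/+ BLA and 9.21 CPM in WT BLA. Foxp2, a forkhead factor of striatal and amygdalar intercalated neurons, had a median of 116 CPM in Lmo4gt/+ NAc and 118 CPM in WT NAc, and 6.96 CPM in Lmo4gt/+ BLA and 16.9 CPM in WT BLA. For both genes the NAc medians lay close together and the BLA medians apart. Without each mouse in turn the difference of differences ran from 0.89 to 1.37 for Six3 and from 0.87 to 1.30 for Foxp2. Without 7 mice (122, 127, 134 and the 4 whose BLA libraries are high in medium spiny neuron markers) it was 1.32 for Six3 and 1.005 for Foxp2. Among the most variable region differences at this level were those of Ttr, the transthyretin of the choroid plexus (SD 3.77 log2 units), and Neurod6 (3.01).

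Gene lists were described by how many members stood above and below 0 and by their median, beside 49.2% of all tested genes above 0 and a median of -0.0029; 0 members of the 37 lists were called. Small medians rested on single mice: when each mouse was left out in turn, the medians of 18 lists turned in sign without at least 1 mouse and those of 19 did not. Of 25 medium spiny neuron markers 24 were above 0, with a median of 0.22 and 0 members at an unadjusted p under 0.05. Their smallest p values were those of Six3, Gnal (0.26 ± 0.14), the olfactory-type G protein that couples dopamine receptors to cAMP, Pdyn (0.76 ± 0.52), the precursor of dynorphin, and the D1 dopamine receptor gene Drd1a (0.26 ± 0.20). The one member below 0 was Ppp1r1b (-0.02 ± 0.32), which encodes DARPP-32. The log2 ratio of the summed marker levels, NAc over BLA, was 2.27, 2.46 and 3.04 in Lmo4gt/+ mice and 1.65, 2.55 and 3.23 in WT mice (lowest, median, highest). Its mean was 2.66 ± 0.36 in Lmo4gt/+ mice and 2.51 ± 0.51 in WT mice (SD, n = 9 and 10), a difference of 0.15 that lies within the spread between mice. The list rested partly on WT mouse 129, whose BLA library is high in these markers: without it 19 of 25 members were above 0, with a median of 0.07. Without the 7 mice named above, which include mouse 129, 23 of 25 were above 0, with a median of 0.22.

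Of 24 pallial projection neuron markers 8 were above and 16 below 0, with a median of -0.39. Bhlhe22, a transcription factor of projection neurons, stood at -0.70 ± 0.32, Lypd1 at -0.43 ± 0.25, Emx2 at 0.32 ± 0.18 and Etv1 at 0.20 ± 0.12. This median moved with single mice: it was -0.76 without mouse 122 and -0.09 without mouse 134. Without both of these mice it was -0.49, with 8 of 24 members above 0. Without the 7 mice named above it was -0.58, with 7 of 24 above 0. The median was 0.09, with 15 of 24 members above 0, when a component was added as a term of a limma fit. This was the first principal component of the per-mouse differences of the cell type markers. It was computed from markers that include these 24, so this median is no independent check of them. That component ran from -0.197 to 0.485 in Lmo4gt/+ mice, highest in mouse 122, and from -0.242 to 0.532 in WT mice, highest in mouse 134. Of 14 markers of the central amygdala and the intercalated cells beside the BLA 9 were above 0, with a median of 0.16 (0.06 without mouse 129, 0.10 without mouse 127, 0.11 without mouse 122, 0.26 without mouse 134 and 0.28 without mouse 128). Tshz1, a marker of intercalated cells, stood at 0.34 ± 0.14 and Ezr at -0.19 ± 0.09. At an unadjusted p under 0.05 there were 2 of the 14 members above 0 and 1 below 0, together 21.4% against 2.96% of all genes. The summed level of these markers in the BLA was 520 to 694 CPM in Lmo4gt/+ mice and 511 to 831 CPM in WT mice.

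Among glial lists, 1 of 18 oligodendrocyte markers was above 0, with a median of -0.11. Apod, a lipocalin that carries lipids, stood at -0.36 ± 0.18, and the myelin genes Ermn, Cldn11 and Cnp stood at -0.15, -0.17 and -0.10. The summed level was 3746 to 8529 CPM in Lmo4gt/+ NAc and 4321 to 9472 CPM in WT NAc, and 1836 to 3236 CPM in Lmo4gt/+ BLA and 2054 to 2920 CPM in WT BLA. This count also rested on single mice, with a median of -0.17 without mouse 156, 7 of 18 members above 0 without mouse 134 and 10 of 18, at a median of 0.0093, without mice 122 and 134. Of 12 markers of the oligodendrocyte lineage and its precursors 1 was above 0, with a median of -0.17. Neu4, C1ql1, Olig1, Olig2, Nkx2-2 and Sox10 had an unadjusted p under 0.05, with values between -0.47 and -0.21, against 2.96% of all genes. For Olig2, a transcription factor that specifies this lineage, the mean region difference was 0.30 ± 0.16 in Lmo4gt/+ mice and 0.51 ± 0.23 in WT mice (SD, n = 9 and 10). Without mice 122 and 134 the median of the list was -0.13, with 4 of 12 members above 0.

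Of 15 astrocyte markers 3 were above 0 (median -0.06, and -0.03 without mouse 129), and Gfap, the intermediate filament of reactive and white-matter astrocytes, had the smallest p at -0.74 ± 0.28. Of 16 microglial markers 6 were above 0 (median -0.07, and -0.0025 without mouse 149), with the integrin Itgam at 0.40 ± 0.18. Of 15 endothelial and mural markers 3 were above 0 (median -0.06, from -0.10 without mouse 147 to -0.04 without mouse 133), with the angiopoietin receptor gene Tek at -0.27 ± 0.11. Among 20 interneuron and cholinergic markers 9 were above 0 (median -0.06, from -0.13 without mouse 133 to 0.04 without mouse 149), and Htr3a, the serotonin-gated channel of a class of interneurons, stood at -0.76 ± 0.27.

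Lists of tissues at the edge of a punch gave wider values. Of 14 meningeal fibroblast markers 3 were above 0, with a median of -0.49 (-0.29 without mouse 138). The collagens Col1a1 and Col3a1 (-0.85 ± 0.25 and -1.07 ± 0.48), Bgn (-0.48 ± 0.15) and Aldh1a2 (-1.21 ± 0.51) had an unadjusted p under 0.05. They are 28.6% of the list, against 2.96% of all genes, and their p includes mouse 138, whose BLA library is high in meningeal markers. The summed level of the 14 markers in the BLA ran from 69.5 through a median of 84.8 to 296 CPM in Lmo4gt/+ mice and from 64.2 through 74.6 to 97.3 CPM in WT mice. In the NAc it was 71.5, 94.0 and 124 CPM in Lmo4gt/+ mice and 82.2, 105 and 139 CPM in WT mice. Of 17 tested markers of motile cilia and ependyma, from 20, 4 were above 0, with a median of -0.19 (-0.09 without mouse 122 and likewise without mouse 149, and -0.29 without mouse 147); besides Foxj1, the axonemal gene Hydin stood at -0.85 ± 0.37. Of 5 tested haemoglobin and red cell genes, from 6, 0 were above 0, with a median of -0.23 (-0.52 without mouse 122, and 0.03 with 3 above 0 without mouse 138), and Hbb-b1 stood at -0.87 ± 0.30; globin copies share reads, so their single values are uncertain. Of the 5 red cell genes 2 had an unadjusted p under 0.05, both below 0. Of 12 choroid plexus markers 6 passed the count filter and 5 of these were above 0. The list's median was 0.38, with 0.92 without mouse 127 and 0.13 without mouse 147. Ttr had a difference of differences of -0.59 ± 2.34. The part of these tissues in the values of other genes was not tested.

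**Figure D5:**
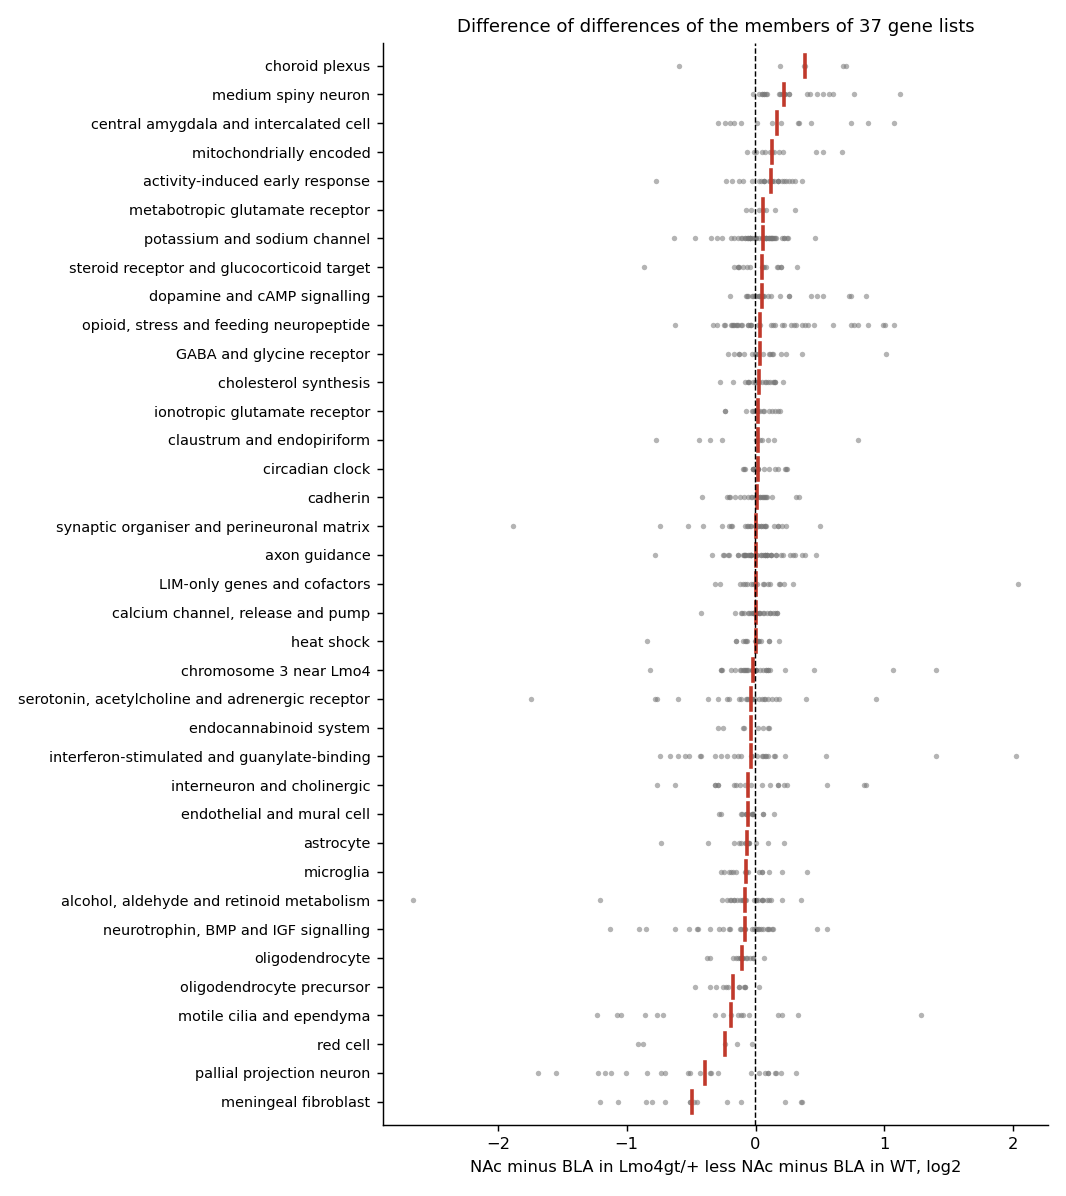
Difference of differences (log2) of the tested members of 37 gene lists (grey points) with the list's median (red bar), sorted by the median; the dashed line is the median of all tested genes, -0.0029. Medians run from -0.49 for meningeal markers to 0.38 for choroid plexus markers, and 0 members were called.

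Genes of the LIM-only family and its partners were evenly split. Of 20 tested members, from 22, 10 were above and 10 below 0, with a median of 0.0043 (-0.02 without mouse 129 to 0.05 without mouse 136). The relatives Lmo1, Lmo2 and Lmo3 stood at 0.19 ± 0.20, -0.0025 ± 0.13 and -0.03 ± 0.09. The cofactor genes Ldb1 and Ldb2 stood at 0.01 ± 0.07 and -0.07 ± 0.12, Rlim, which encodes a ubiquitin ligase of LIM cofactors, at -0.01 ± 0.06, and Deaf1, a transcription factor known to bind LMO4, at -0.02 ± 0.09. Lhx2, a LIM homeodomain factor, was at -0.27 ± 0.14, and Lhx9 had an unadjusted p under 0.05 with 2.04 ± 0.93 at 0.857 CPM on average. The intervals behind these standard errors are narrow for Ldb1, Rlim, Deaf1 and Lmo3, which were counted at 36.8 to 262 CPM.

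Receptors and signalling genes of reward and stress were examined next. Of 27 tested genes of dopamine and cAMP signalling, from 30, 20 were above 0, with a median of 0.05 (0.02 without mouse 129 to 0.09 without mouse 133) and 0 members at an unadjusted p under 0.05; the D5 receptor gene Drd5 stood at 0.73 ± 0.35 and Maob, which encodes an enzyme of monoamine breakdown, at -0.20 ± 0.10. Of 41 tested opioid, stress and feeding neuropeptide genes, from 43, 22 were above 0, with a median of 0.04. That median was -0.03, with 19 above 0, without mouse 122 and 0.15, with 24 above 0, without mouse 139. Besides Oprk1, the mu opioid receptor gene Oprm1 (0.45 ± 0.19) and the substance P receptor gene Tacr1 (0.28 ± 0.12) had an unadjusted p under 0.05. Together these are 7.32% of the tested list, against 2.96% of all genes. Oprm1 had a mean region difference of 2.11 ± 0.44 in Lmo4gt/+ mice and 1.67 ± 0.46 in WT mice, and Tacr1 one of 1.32 ± 0.21 in Lmo4gt/+ mice and 1.05 ± 0.31 in WT mice (SD, n = 9 and 10). The adjusted p of both was 0.9999 in edgeR.

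The medians of receptor and channel lists were small, and their ranges without each mouse in turn are given beside them. Ionotropic glutamate receptors had 11 of 17 members above 0 (median 0.02, range -0.01 to 0.07) and metabotropic ones 5 of 7 (median 0.06, range 0.04 to 0.15), with the metabotropic receptor gene Grm4 at 0.31 ± 0.18. Of 18 GABA and glycine receptor genes 11 were above 0 (median 0.04, range 0.01 to 0.07), and the GABA-A subunit gene Gabrg3 stood at 0.36 ± 0.12. Of 28 serotonin, acetylcholine and adrenergic receptor genes 10 were above and 18 below 0 (median -0.03, range -0.09 to -0.01). The smallest p of this list was that of Htr3a (-0.76). Its members ran from -1.745 to 0.93, the highest being the muscarinic receptor gene Chrm5 (0.93 ± 0.36). Without mouse 122 the median of the 28 genes was -0.09. The endocannabinoid genes were 4 above and 4 below 0 (median -0.03, range -0.06 to 0.02), with Faah, which encodes the enzyme that degrades anandamide, at -0.29 ± 0.19. Calcium channels, release channels and pumps had 16 of 27 above 0 (median 0.0042, range -0.03 to 0.06), and potassium and sodium channels 31 of 53 (median 0.06, range -0.0042 to 0.08), with Kcnh1 at 0.25 ± 0.10. Alcohol, aldehyde and retinoid metabolism had 11 of 27 tested members above 0 (median -0.08, range -0.10 to 0.0002). Acss1, which makes acetyl-CoA from acetate in mitochondria, stood at -0.26 ± 0.11 and the retinoid receptor gene Rxrg at 0.35 ± 0.18. Single members ran from -2.66 to 0.35. At an unadjusted p under 0.05 there were 3 members, all below 0, which is 11.1% of the list against 2.96% of all genes.

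Of 26 early response genes, which are induced by neuronal activity, 20 were above and 6 below 0. Their median was 0.12 (0.08 without mouse 139 to 0.18 without mouse 136), and single members ran from -0.77 to 0.36. Fosb stood at 0.36 ± 0.13, Sik1 at 0.30 ± 0.15 and Nr4a1 at 0.22 ± 0.14. Of 13 protein-coding genes of the mitochondrial genome 11 were above 0, with a median of 0.13 (0.08 without mouse 147 to 0.18 without mouse 149); mt-Nd5 stood at 0.18 ± 0.10, mt-Nd4 at 0.14 ± 0.09 and mt-Co1 at -0.01 ± 0.12. mt-Co3 stood at 0.67 ± 0.28 but was counted at 3.24 CPM, against 8861 CPM for mt-Co1, and nuclear copies of mitochondrial genes can take up reads, so its value is uncertain. Synaptic organisers and perineuronal matrix genes were 14 above and 14 below 0 (median 0.0061, from -0.05 without mouse 149 to 0.03 without mouse 159). Smoc1 and C1ql2 below 0 and Lrrtm3 (0.18 ± 0.08) and Nrxn3 (0.21 ± 0.09) above 0 had an unadjusted p under 0.05. They are 14.3% of the list, against 2.96% of all genes. In neurotrophin, BMP and IGF signalling 13 of 32 genes were above 0 (median -0.08, from -0.14 without mouse 122 to -0.02 without mouse 129), with Igfbp2 at -0.91 ± 0.29. Among steroid receptors and glucocorticoid targets 9 of 17 were above 0 (median 0.05, and -0.05 without mouse 128), with the oestrogen receptor gene Esr1 at -0.87 ± 0.33. Axon guidance (24 of 46), cadherins (13 of 24), circadian clock (12 of 19), heat shock (10 of 18) and cholesterol synthesis genes (13 of 21) had medians between 0.0024 and 0.03, each of which was below 0 without at least 1 mouse.

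The neighbours of Lmo4 on chromosome 3 were examined because they lie close to the trapped gene. Of 61 annotated genes within 5 Mb 32 were tested, with 14 above and 18 below 0 and a median of -0.02 (-0.05 without mouse 127 to -0.0029 without mouse 159). Pdlim5, a LIM domain protein of the synapse and cytoskeleton, had the smallest p at -0.26 ± 0.08, with mean region differences of -0.07 ± 0.12 in Lmo4gt/+ mice and 0.19 ± 0.19 in WT mice (SD, n = 9 and 10; edgeR, adjusted p = 0.9999). Gbp5, a guanylate-binding protein, was chosen after its values were seen. It had 140 reads in all over the 9 Lmo4gt/+ NAc libraries (4 to 25 each) and 0 reads over the 10 WT NAc libraries, and 141 reads over the Lmo4gt/+ BLA libraries (2 to 25 each) and 3 reads over the WT BLA libraries, all 3 in mouse 160. In the NAc library of mouse 122, whose labels conflict, Gbp5 had 21 reads. Its fitted difference of differences (1.40 ± 1.10) depends on the prior count because WT NAc holds no reads, and Gbp5 reads can be shared with near-identical copies. Of 27 tested interferon-stimulated and guanylate-binding genes, from 32, 12 were above 0, with a median of -0.03. That median was -0.18, with 10 above 0, without mouse 122, 0.05, with 15 above 0, without mouse 136, and 0.10, with 15 above 0, with the marker component as a term. Of these genes Tlr3, a sensor of double-stranded RNA, stood at -0.43 ± 0.12 and Ifit3 at -0.52 ± 0.18.

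The size of the region contrast as a whole was then compared with 1 value per mouse. The SD over genes of the region differences was 1.02, 1.15 and 1.37 log2 units in Lmo4gt/+ mice (lowest, median, highest) and 1.01, 1.09 and 1.22 in WT mice. The ranges overlapped, and the mean was 1.16 ± 0.11 in Lmo4gt/+ mice and 1.09 ± 0.06 in WT mice (SD, n = 9 and 10; exact two-sided permutation test, p = 0.0904). The slope of each mouse's region differences on the mean of the other mice, which reads the shared pattern alone, was 1.005 ± 0.125 in Lmo4gt/+ mice and 0.937 ± 0.114 in WT mice (exact two-sided permutation test, p = 0.230). The lowest slopes were those of mice 122 (0.734) and 134 (0.704), whose NAc libraries hold the most pallial marker reads. Both calls depended on single mice. Without mouse 122 the exact p was 0.0317 for the SD and 0.0488 for the slope, and without WT mouse 133 it was 0.0332 for the SD. The slope had an exact p of 0.0379 without the same 7 mice, which stood apart in markers in earlier results of these data; mouse 138, with its meningeal markers, is not one of them. Under these settings the values were larger in Lmo4gt/+ mice, by 0.0845 to 0.0869 for the SD and 0.0817 to 0.0995 for the slope. Other exclusions made the differences smaller. Without Lmo4gt/+ mouse 149, which had the largest SD, the SD differed by 0.0435 (exact permutation test, p = 0.194). Without WT mouse 134 the slope differed by 0.0424 (exact permutation test, p = 0.411). No value without both mice 122 and 134 is given for these measures.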

How the data were processed

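The authors deposited unnormalized whole-number read counts for each Ensembl gene of each library. The submitters' processing notes name build mm9 and the tools HISAT2, HTSeq 0.11.1, DESeq2 and MultiQC 1.7; settings, strand included, are not given in the sources used. HTSeq's lines for unassigned reads (29.8% of reads on average, 24.7% to 38.1%) were left out. The files list 51826 genes, of which 32708 had a name in GENCODE vM1 (NCBIM37), matched without version suffix; they hold 98.3% of gene counts. The files' identifiers are of later versions, so gene limits in counting may differ from the 1-based positions printed.

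From these counts, edgeR 4.0.16 (R 4.3.3; TMM, filterByExpr with minimum count 10, robust quasi-likelihood F test, Benjamini-Hochberg threshold 0.05) fitted 38 libraries with the mouse as a block. The script was tested on simulated data. Per-mouse values are log2 CPM with a prior count of 2, which understates changes of weakly counted genes. The difference between the genotypes' means of these values can depart from the edgeR value where a region holds few reads. For Serpina9 it was -0.02 against 0.1 in edgeR, and for Cd4 it was 1.165 against 0.57. A ± beside a difference of differences is its SE and beside a mean its SD. Permutation tests used SciPy 1.17.1 and all assignments; DESeq2 1.42.0, limma 3.58.1 and other filters, scalings and sets of mice were alternatives. Whether the labels' mice came from separate litters or days is not given, so p-values measure the spread between these mice.

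The pairing of regions comes from the mouse number in the titles. Deviations from the group means of same-numbered libraries correlated weakly (median r = 0.0356 across genes, over 0.1 in 1 of 19 pairs, against -0.0044 between different mice of a genotype). No libraries were identical.

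Members, gene lists and rules were chosen with earlier results of these data known. Named were Lmo4, the 12 genes per direction with the smallest p (clone, Gm, pseudogene and unnamed identifiers skipped), the 8 genes per direction with the largest region difference, up to 4 members per list, and the 3 largest values per direction at 10 CPM or more. The values of some genes are not reported here.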

Additional observations from a re-analysis of the deposited data

Results flagged for a closer look

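For 48 measures of the region difference, the highest and lowest mouse of each genotype were compared with the nearest other mouse by Dixon's criterion at the 95% level, and 5 of 96 groups met it; chance gives about 1 in 20 groups. Of these, 3 concerned Lmo4gt/+ mouse 122, whose NAc library is high in pallial projection neuron markers. Its region difference was -3.22 for Slc30a3, against -6.90 in the next mouse, -1.89 for Rspo2, against -5.88, and -0.44 for Neurod6, against -5.16. WT mouse 134, whose NAc library is also high in these markers, stood at -1.45 for Pappa2, against -5.37 in the next WT mouse. WT mouse 160 stood at 1.25 for Itga11, an integrin gene of 2.13 CPM on average, against 0.43 in the next WT mouse.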

How the results depend on the processing

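The count of genes called for the difference of differences was 0 under every alternative run: upper-quartile and RLE scaling, no count filter, a filter of at least 1 CPM in each region, a fit that was not robust, DESeq2, limma voom, limma on per-mouse differences (prior counts 0.5, 2 and 5, and with the marker component), without each mouse in turn, without mice 122 and 134 (chosen after seeing the data) and without 7 mice that stood apart in markers in earlier results of these data (122, 127, 129, 134, 149, 156 and 159). Genes at an unadjusted p under 0.05 ranged from 394 to 937. The lowest count was of 14130 genes tested, with at least 1 CPM in each region. The highest was of 18805 genes tested, without the 7 mice. The numbers tested differ, so the counts alone do not rank the settings. Which genes were under 0.05 in each setting was not compared. Without the replicate block 0 genes were called, 532 had an unadjusted p under 0.05 and Lmo4 stood at 0.18, so the paired fit changed no call. Genes called between regions stayed within 1.5 times the reported counts. Without each mouse in turn, Lmo4 ran from 0.0862 to 0.244, the SD over genes differed by 0.0435 to 0.0869 and the slope by 0.0424 to 0.0995; the slope difference was 0.0817 without the 7 mice. Among Lmo4 and the genes named for their p, their region difference or their size, the lowest adjusted p without 1 mouse was 0.114, for mt-Nd6. Among 717 other genes, which are the list members and 9030425E11Rik, it was 0.275, for 9030425E11Rik without WT mouse 136, and 276 changed sign without at least 1 mouse; this and the list medians without each mouse were added after seeing the data.

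Genes named for their p, their region difference or their size changed sign as follows, and the cause was not tested. Serpina9 stood at -0.175 in DESeq2, -0.0217 in limma, -0.103 with prior count 0.5, -0.0475 with the marker component and -0.133 without the 7 mice. Gpr6 stood at -0.0250 in DESeq2, -0.0033 in limma, -0.0128 with prior count 0.5 and -0.283 without the 7 mice, where Calcr stood at -0.365. With the marker component Slc30a3 stood at 0.159, Pappa2 at 0.156, Slc17a7 at 0.125, Neurod2 at 0.221, Rtn4rl2 at 0.328 and Prdm8 at 0.374. Slc30a3, Slc17a7 and Neurod2 are among the markers from which that component was computed. Without each mouse in turn Gpr6 ran from -0.233 to 0.297, Isl1 from -0.322 to 0.861, Pappa2 from -1.68 to 0.208, Scn4b from -0.0590 to 0.476, Serpina9 from -0.320 to 0.431 and Sh3rf2 from -0.295 to 0.444.

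Depth and the number of mice limit genes under 1 CPM, where intervals seldom exclude a 2-fold difference. Genes of large region difference are limited by the spread between mice.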
